A study of Homo sapiens with 8 samples.

Results

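The genes described here are 48 components of WNT signalling: 18 secreted WNT ligands, 12 receptors and co-receptors (FZD1 to FZD10, LRP5 and LRP6), 8 secreted inhibitors of the DKK and SFRP families, 4 genes of receptor turnover (RNF43, ZNRF3, LGR4 and LGR5) and 6 intracellular genes (CTNNB1, APC, AXIN2, LEF1, TCF7 and TCF7L2). They were chosen by name, and each was read at its gene-end peak, the accessible peak of highest mean level within 1 kb of either end of its RefSeq span, and at the strongest peak anywhere over that span. A gene-end peak was found for 42 of the 48, against 15949 of 20033 protein-coding genes. WNT2, WNT3, WNT5A, WNT5B, WNT16 and FZD10 had none, and WNT2 and FZD10 had no tested peak over the span either, which left 46 genes with a strongest peak. In 31 genes the strongest peak was the gene-end peak, and in 15 it was another one.

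The assay was ATAC-seq, which uses the transposase Tn5 to cut and tag accessible DNA, and the cells were A2780, a long-established line from a human ovarian tumour. All 8 libraries are labelled genotype WT, with 2 each of control cells (treatment NA), a derivative resistant to cisplatin (CpR in the labels and below), a derivative resistant to paclitaxel (TxR) and a derivative resistant to both drugs (TxCpR). Cisplatin crosslinks DNA and paclitaxel stabilises microtubules. The sources used here do not say whether drug was present at collection or whether a derivative is 1 clone. They also do not say whether libraries of the same group are separate cultures. The p-values thus measure only the spread between libraries, mostly as averaged over peaks of similar level, and that spread may be technical.

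WNT ligands are secreted lipid-modified proteins that bind Frizzled (FZD) receptors, and for the canonical branch also the co-receptors LRP5 or LRP6. Binding blocks the destruction complex that contains APC and AXIN proteins, so that beta-catenin, the product of CTNNB1, accumulates and joins the DNA-binding factors LEF1, TCF7 and TCF7L2 at target genes. Most DKK proteins bind LRP5 and LRP6, and SFRP proteins bind the ligands. RNF43 and ZNRF3 are ubiquitin ligases that remove Frizzled receptors from the membrane unless R-spondins and LGR receptors hold them back. In ovarian tumours the pathway is studied for its part in stem-like cells and drug response.

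Levels are CPM, read counts scaled to the same total over all peaks in every library, and since every peak is 1001 bp wide, levels of different peaks can be set side by side. Differences are log2 differences of CPM + 0.5 with their standard error (SE), from limma fitted to all 8 libraries. For the spread of each peak, limma borrowed mostly from peaks of similar level (98.5 prior against 4 residual degrees of freedom). A wide pair of libraries thus hardly widened its own SE. A peak was called higher or lower where the Benjamini-Hochberg adjusted p over 158698 tested peaks was under 0.05. Peak positions are hg38. The RefSeq table gives gene spans and, for 32 of the listed genes, promoter windows, but no exons, so exonic and intronic positions were not assigned. All 3 comparisons of a resistant line with control share the same 2 control libraries.

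The sequences upstream of 6 transcription starts are shown because a peak on the start, or for WNT7A a peak just upstream of it that overlaps the sequence, carried a called difference described below: WNT16 (lower in CpR cells), WNT5A (higher there), WNT7A (lower in CpR and TxCpR cells), FZD1 (higher in TxR cells), FZD8 (lower in TxCpR cells) and RNF43 (higher in CpR and TxCpR cells). Each is the 250 bases before the start from RefSeq (GRCh38.p14), 5′ to 3′, with CG pairs, the sites of DNA methylation, in capitals. They lie at chr7:121328750-121328999, plus strand, at chr3:55487307-55487556, minus strand, at chr3:13880072-13880321, minus strand, at chr7:91264183-91264432, plus strand, at chr10:35642297-35642546, minus strand and at chr17:58417535-58417784, minus strand.
WNT16: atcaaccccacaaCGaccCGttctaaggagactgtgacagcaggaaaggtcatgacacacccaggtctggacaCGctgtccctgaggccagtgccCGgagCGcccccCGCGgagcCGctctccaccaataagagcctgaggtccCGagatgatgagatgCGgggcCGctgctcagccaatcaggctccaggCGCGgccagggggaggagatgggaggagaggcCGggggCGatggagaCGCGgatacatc
WNT5A: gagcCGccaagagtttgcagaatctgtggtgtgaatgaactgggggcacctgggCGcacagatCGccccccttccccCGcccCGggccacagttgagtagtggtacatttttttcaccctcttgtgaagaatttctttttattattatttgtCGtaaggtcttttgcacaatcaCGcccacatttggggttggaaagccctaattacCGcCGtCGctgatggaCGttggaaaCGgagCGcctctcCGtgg
WNT7A: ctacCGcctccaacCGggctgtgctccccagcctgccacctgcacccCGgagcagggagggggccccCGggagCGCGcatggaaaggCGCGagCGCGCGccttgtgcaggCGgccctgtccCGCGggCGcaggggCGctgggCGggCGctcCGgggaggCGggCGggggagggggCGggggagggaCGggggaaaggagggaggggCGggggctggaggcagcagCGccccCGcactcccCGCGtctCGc
FZD1: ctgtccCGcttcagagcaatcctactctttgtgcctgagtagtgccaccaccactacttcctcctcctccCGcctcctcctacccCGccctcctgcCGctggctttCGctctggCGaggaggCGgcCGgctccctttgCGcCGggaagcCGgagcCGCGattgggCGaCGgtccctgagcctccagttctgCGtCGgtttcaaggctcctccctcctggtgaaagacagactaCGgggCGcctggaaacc
FZD8: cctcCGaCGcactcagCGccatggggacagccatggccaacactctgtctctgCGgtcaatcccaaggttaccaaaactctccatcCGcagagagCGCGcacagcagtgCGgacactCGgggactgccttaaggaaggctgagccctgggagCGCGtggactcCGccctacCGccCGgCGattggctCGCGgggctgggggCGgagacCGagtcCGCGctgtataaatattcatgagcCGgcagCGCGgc
RNF43: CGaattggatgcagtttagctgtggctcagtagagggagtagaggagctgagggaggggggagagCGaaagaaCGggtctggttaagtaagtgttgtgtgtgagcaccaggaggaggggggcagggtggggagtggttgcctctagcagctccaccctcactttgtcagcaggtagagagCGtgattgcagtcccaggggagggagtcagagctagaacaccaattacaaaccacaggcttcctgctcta
The CG pairs numbered 29 upstream of WNT7A, 24 of FZD8, 19 of FZD1, 17 of WNT16, 14 of WNT5A and 4 of RNF43, so the RNF43 start was the poorest in CG of these 6. Over the 300-base windows from 250 before to 50 after a start, 27 windows of listed genes that lay under a tested peak held a median of 25 CG pairs (3 to 53), and 13 windows that did not held a median of 22 (0 to 52), next to a median of 21 over 22198 windows of protein-coding genes. The TCF/LEF core motif CTTTGAT, searched on both strands, was in 0 of 40 windows of listed genes, and the longer CTTTGATC, which contains it, was also in 0. These motifs were in 1.98% and 0.451% of the 22198 windows of all protein-coding genes. AXIN2, DKK2, DKK3, DKK4, FZD10, FZD2, FZD3, FZD6, FZD7, LGR5, LRP6, SFRP1, WNT10B, WNT11, WNT7B and ZNRF3 had no entry in the promoter table.

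Accessibility at WNT gene ends differed from control at some genes in each resistant line, in both directions in the CpR and TxR lines and only downward in the TxCpR line. In CpR cells 5 of 42 gene-end peaks were called higher (11.9%) and 11 lower (26.2%), beside 11.1% and 28.6% of the gene-end peaks of all protein-coding genes. In TxR cells 5 were higher (11.9%) and 8 lower (19%), beside 12.7% and 9.68%. In TxCpR cells 0 were higher and 8 lower (19%), beside 4.86% and 14.8%. The CpR counts were thus near the background, and the shares of lower peaks in the other lines were above it, without a test of that gap. That gap all but closed in TxR cells without TxR library 2 and in TxCpR cells without TxCpR library 1. At an unadjusted p under 0.05 limma gave 2 higher gene ends in TxCpR cells, WNT3A and AXIN2, and edgeR on the recovered reads gave 0 at its adjusted threshold.

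The median log2 difference over the 42 gene ends was -0.25 in CpR, -0.10 in TxR and -0.25 in TxCpR cells, beside -0.19, 0.01 and -0.13 over all protein-coding genes. Scaling moved these medians: with median-ratio scaling those over all genes were -0.08, 0.18 and -0.21, and that of the listed genes in TxR cells turned to 0.06. The split moved as well, to 9 higher and 5 lower in TxR cells with median-ratio scaling and also with edgeR, and to 7 higher and 7 lower in CpR cells with loess scaling. Over all 15949 protein-coding gene ends the TxR split moved too, from 2032 higher and 1544 lower. It became 4197 and 927 with median-ratio scaling and 4087 and 925 with edgeR. The CpR split over all of them went from 1774 higher and 4555 lower to 2668 and 2152 with loess scaling. At 27 gene ends (64.3%) a difference was called in at least 1 line, beside 58.3% of the gene ends of all protein-coding genes, and at 15 in none, among them CTNNB1, LRP5, LRP6, FZD4, FZD6, WNT2B, WNT4 and TCF7. The plots of gene-end levels and of gene-end differences by role show every gene.

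**Figure D1:**
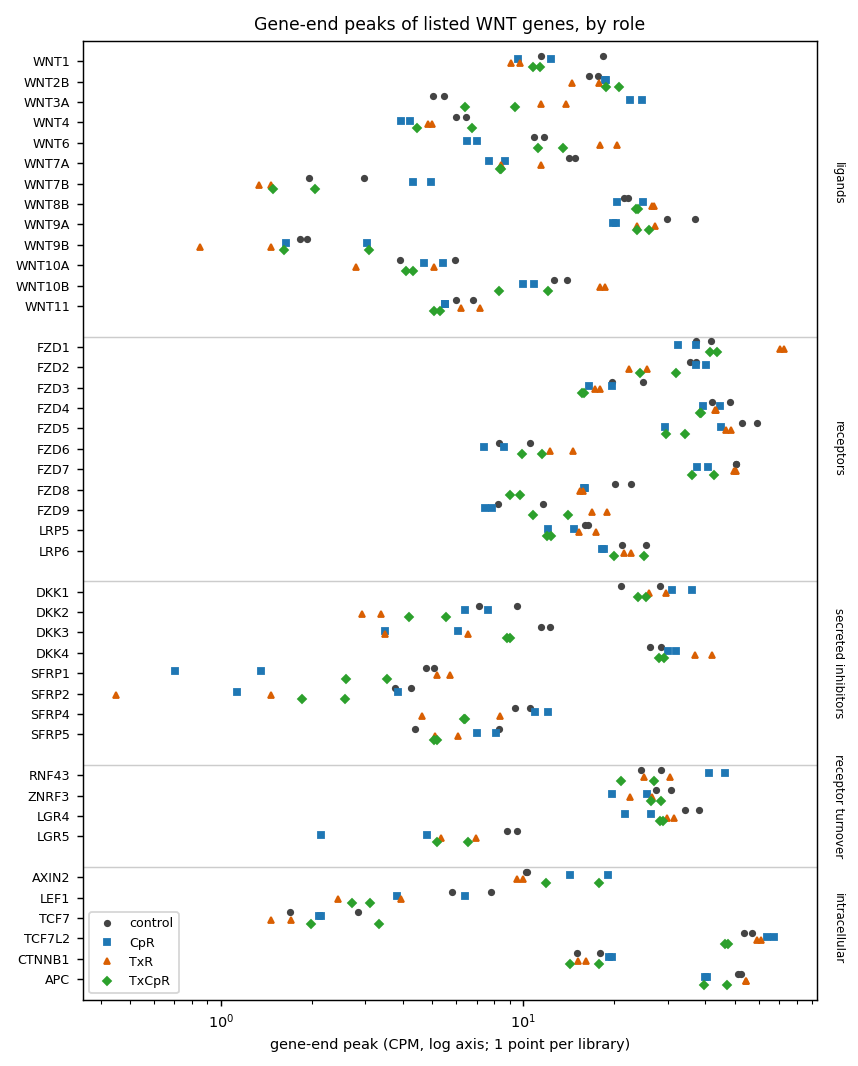
Level of the gene-end peak of each of the 42 listed genes in CPM on a log axis, with 1 point per library and the groups told apart by colour and marker. FZD5, TCF7L2, APC and FZD7 had the highest control means, and the highest single value was 72.7 CPM at FZD1 in a TxR library, while SFRP1 and SFRP2 fell under 2 CPM in the CpR and TxR libraries respectively.

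**Figure D2:**
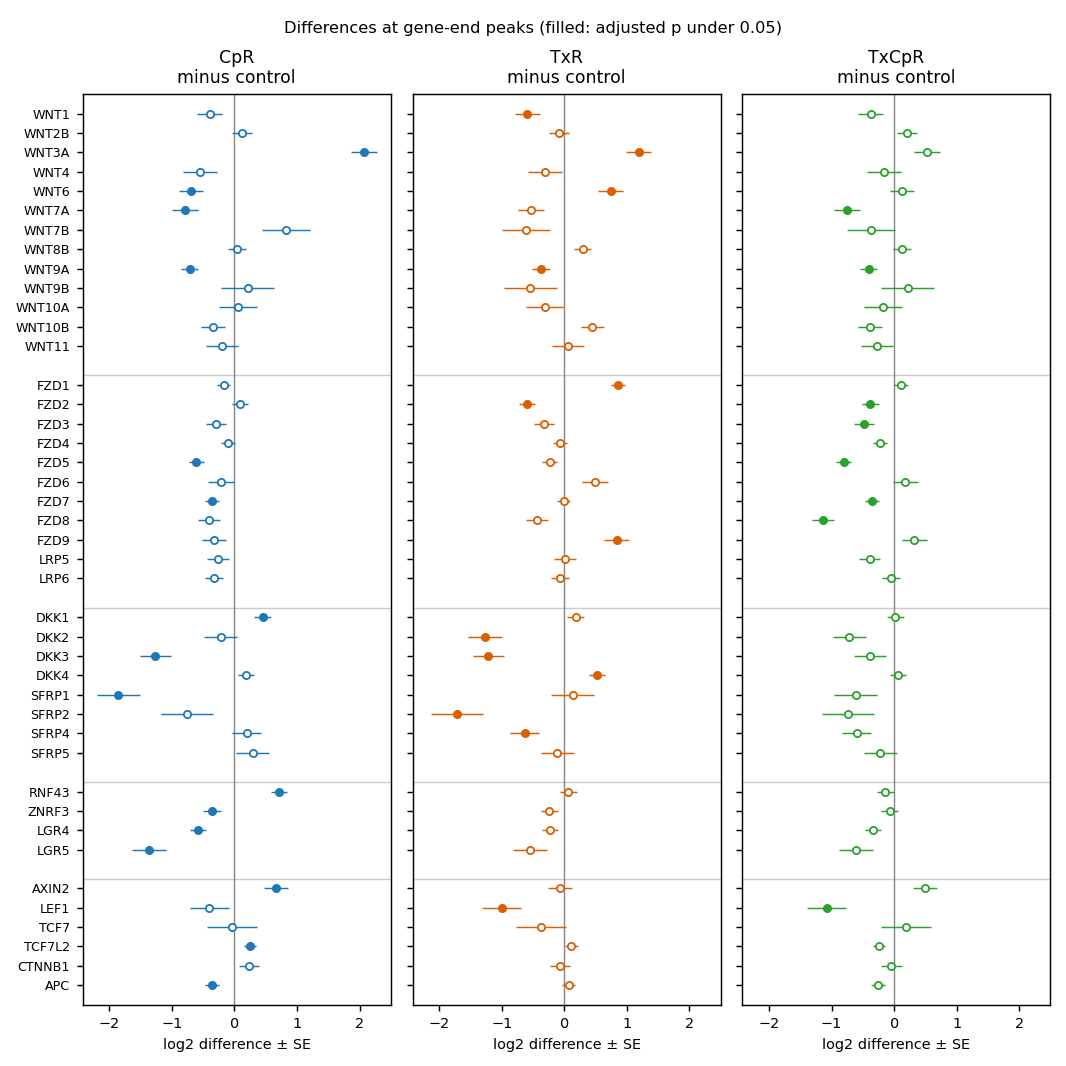
Log2 difference of CPM + 0.5 between each resistant line and control at the 42 gene-end peaks, with bars of 1 SE and filled points where the adjusted p is under 0.05. WNT3A in CpR cells is farthest to the right (2.07) and SFRP1 in the same cells farthest to the left (-1.86), and in TxCpR cells all 8 filled points lie left of 0.

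Among the ligands, WNT3A, a canonical WNT ligand, had the largest gain at a gene end in the CpR and TxR lines. The peak (chr1:228059469-228060469) lies at the far end of the span, 53.0 kb downstream of the listed start. It measured 5.46 and 5.02 CPM in control, 24.6 and 22.6 in CpR, 11.4 and 13.8 in TxR and 6.43 and 9.35 in TxCpR libraries. Every CpR and TxR library was above every control library. The log2 difference was 2.07 (SE 0.20, adjusted p = 4.3e-15) in CpR and 1.19 (SE 0.20, adjusted p = 1.62e-06) in TxR cells, and 0.53 (adjusted p = 0.0709) in TxCpR cells. TxCpR cells were lower than CpR cells (-1.54, adjusted p = 4.55e-10) and than TxR cells (-0.66, adjusted p = 0.011).

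The start of WNT3A went the other way. The peak on it (chr1:228006901-228007901) measured 4.42 and 4.89 CPM in control and 0.675 and 2.34 in CpR libraries (-1.50, SE 0.37, adjusted p = 0.000674). It was also between 2.47 and 3.76 CPM in the other 4 resistant libraries, where no difference was called. The CpR call was lost without CpR library 1 (-0.86) and after the median difference of the surrounding 5 Mb, itself -0.61, was subtracted (-0.89). Peaks on promoter windows and peaks over spans described from here on that are neither the gene-end nor the strongest peak were picked after their values were seen.

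WNT7A, a ligand known from neural and reproductive tract development, likewise differed in opposite directions within its span. Its gene-end peak (chr3:13880203-13881203), centred 632 bp upstream of the listed start and not covering it, measured 14.2 and 14.8 CPM in control, 8.67 and 7.72 in CpR, 11.4 and 8.43 in TxR and 8.41 and 8.38 in TxCpR libraries. It was lower than control in CpR cells (-0.79, SE 0.21, adjusted p = 0.00138) and in TxCpR cells (-0.75, adjusted p = 0.00573), though the latter call was lost without control library 2 (-0.72) or TxCpR library 1 (-0.75). Its strongest peak (chr3:13849879-13850879), 29.7 kb downstream of the start, measured 2.60 and 3.35 CPM in control, 19.0 and 17.4 in CpR, 2.43 and 1.24 in TxR and 3.71 and 1.5 in TxCpR libraries. Both CpR libraries stood far above the other 6. The difference there was 2.44 (SE 0.32, adjusted p = 4.27e-10), and TxCpR cells were 2.69 lower than CpR cells on the log2 scale (adjusted p = 8.95e-12).

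WNT3 and WNT7B also gained accessibility inside their spans in CpR cells. The strongest WNT3 peak (chr17:46770508-46771508) measured 4.29 and 5.54 CPM in control and 11.7 and 9.94 in CpR libraries (1.07, SE 0.26, adjusted p = 0.000532). Of 18 peaks over WNT3, 6 were higher in that line, beside 17.3% of the peaks over any protein-coding span, and the steepest (chr17:46764428-46765428, also within the RefSeq span of LRRC37A2) went from 1.17 and 1.80 to 12.2 and 12.6 CPM (2.72, adjusted p = 7.73e-11). The strongest WNT7B peak (chr22:45968887-45969887) measured 6.11 and 4.89 CPM in control, 13.1 and 12.2 in CpR, 2.79 and 5.39 in TxR and 2.10 and 4.51 in TxCpR libraries (1.13, SE 0.28, adjusted p = 0.000705 in CpR cells). A weak WNT2B peak (chr1:112522428-112523428, shared with the span of ST7L) rose in the same line from 0.910 and 0.515 to 6.98 and 6.31 CPM (2.58, adjusted p = 2.39e-06).

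The non-canonical ligands WNT5A and WNT5B, which signal mainly without beta-catenin, differed in opposite directions at their starts in CpR cells. The WNT5A start (chr3:55486826-55487826) measured 3.38 and 2.70 CPM in control, 10.6 and 7.48 in CpR, 0.971 and 1.80 in TxR and 1.85 and 1.40 in TxCpR libraries. It was higher than control in CpR cells (1.42, SE 0.36, adjusted p = 0.000845), with no call after the regional median of 0.55 was subtracted (0.87) or without CpR library 1 (1.18). A further WNT5A peak (chr3:55490900-55491900), upstream of that start, went from 0.390 and 0 to 4.61 and 3.63 CPM in the same line (2.78, adjusted p = 3.83e-06). In that line 3 of 4 peaks over the gene were called higher, beside 17.3% over any protein-coding span. The count was 1 after regional subtraction and also fell without CpR library 1. The WNT5B start (chr12:1629154-1630154) measured 4.68 and 7.46 CPM in control and 3.04 and 1.05 in CpR libraries (-1.45, SE 0.33, adjusted p = 0.0002), and 3 of 4 peaks over WNT5B were called lower, beside 14.7% over any protein-coding span. That start call was lost without CpR library 2 (-0.86), which left 0 of the 4 peaks called, and 1 was called with median-ratio scaling, with edgeR, after regional subtraction, and without CpR library 1 or control library 2.

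WNT16 had the largest loss among the gene-end and strongest peaks of the ligands. Its strongest peak, which lies on the listed start (chr7:121328301-121329301) but inside the RefSeq span and away from both ends, measured 10.1 and 6.44 CPM in control, 1.58 and 2.34 in CpR, 5.46 and 5.17 in TxR and 5.07 and 4.19 in TxCpR libraries. All 6 resistant libraries were below both control libraries. The difference was called in CpR cells (-1.82, SE 0.29, adjusted p = 2.6e-07) and was -0.56 (adjusted p = 0.201) and -0.75 (adjusted p = 0.0782) in the TxR and TxCpR lines.

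Smaller called differences at ligand gene ends were found for WNT6, WNT9A and WNT1. WNT6 (chr2:218860581-218861581) measured 11.7 and 10.8 CPM in control, 6.53 and 7.02 in CpR, 20.4 and 17.9 in TxR and 13.5 and 11.2 in TxCpR libraries, and was thus lower in the first line (-0.69, adjusted p = 0.00262) and higher in the second (0.74, adjusted p = 0.00258). The first WNT6 call was lost after regional subtraction (-0.44) and the second without TxR library 1 (0.65). WNT9A (chr1:227946120-227947120) was the 1 gene whose end was called the same way in all 3 lines, from 29.9 and 36.8 CPM in control to 19.8 and 20.2, 23.8 and 27.3, and 26.1 and 23.8 CPM in CpR, TxR and TxCpR libraries (-0.71, -0.37 and -0.41, adjusted p = 1.36e-05, 0.0488 and 0.0334). The WNT9A difference in CpR cells was -0.11 once the regional median of -0.61 was subtracted. The TxR call was kept under 10 of 17 alternatives and was lost, among others, with edgeR (-0.22). The TxCpR call was kept under 12 of 17 alternatives and was lost, among others, with quantile scaling (-0.29). The WNT9A gene-end peak is centred 1.31 kb downstream of the listed start and does not cover it. On the WNT9A promoter window, a separate peak just upstream of the start (chr1:227948036-227949036) was not called in any of the 3 lines. Its differences were -0.38, -0.03 and -0.15 in CpR, TxR and TxCpR cells (adjusted p = 0.0886, 0.937 and 0.649). WNT1 (chr12:48977766-48978766) was called lower in TxR cells (-0.59, adjusted p = 0.0274), with control libraries at 11.4 and 18.3 CPM. The WNT1 call was kept under 10 of 17 alternatives and was lost, among others, without control library 2 (-0.27). WNT2B, WNT4, WNT7B, WNT8B, WNT9B, WNT10A, WNT10B and WNT11 had no called gene end in any of the 3 comparisons with control.

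In TxCpR cells 5 of 11 gene ends of receptors and co-receptors were lower (FZD2, FZD3, FZD5, FZD7 and FZD8, 45.5%), beside 14.8% of all protein-coding gene ends. With edgeR 6 of the 11 were lower, beside 4089 of all 15949 protein-coding gene ends. FZD8, a receptor for canonical ligands, had the steepest loss (chr10:35641953-35642953, an end it shares with the uncharacterised LOC124902528). It measured 22.6 and 20.1 CPM in control, 16.0 and 15.9 in CpR, 15.4 and 15.7 in TxR and 9.77 and 9.03 in TxCpR libraries. The TxCpR libraries were the lowest of the 8. The difference was -1.14 (SE 0.17, adjusted p = 7.61e-08) in TxCpR cells, which were also lower than CpR cells (-0.73, adjusted p = 0.000247) and TxR cells (-0.70, adjusted p = 0.00104), and -0.41 (adjusted p = 0.0559) and -0.44 (adjusted p = 0.0642) in the lines resistant to 1 drug. All 3 peaks over FZD8 were called lower in TxCpR cells, beside 5.51% of the peaks over any protein-coding span. They lie over a span of 4.05 kb and include the gene-end peak, so they are not separate observations.

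FZD7, a receptor studied in ovarian cancer stem-like cells, was lower at all 3 of its peaks in TxCpR cells. Of the peaks over any protein-coding span 5.51% were lower there. The 3 peaks lie over the 4.59 kb span of FZD7 and include its gene-end peak. Its gene end (chr2:202032957-202033957) measured 50.6 and 50.3 CPM in control, 40.9 and 37.4 in CpR, 49.7 and 50.5 in TxR and 42.8 and 36.1 in TxCpR libraries (-0.36 in both the CpR and TxCpR lines, adjusted p = 0.00549 and 0.0155). Both gene-end calls were lost with loess scaling (-0.21 and -0.21), the first also without CpR library 2 (-0.30) and the second without TxCpR library 2 (-0.24). A second FZD7 peak within the span (chr2:202036191-202037191) showed a far larger loss, from 6.89 and 10.8 CPM in control and 9.96 and 8.99 in TxR libraries to 1.48 and 1.83 in TxCpR libraries (-2.09, SE 0.28, adjusted p = 1.62e-09). Its CpR libraries, at 5.85 and 3.98 CPM, lay between (-0.78, adjusted p = 0.022).

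FZD5 (chr2:207769385-207770385) measured 59.3 and 52.9 CPM in control, 29.5 and 45.0 in CpR, 48.4 and 46.6 in TxR and 29.6 and 34.2 in TxCpR libraries. It was lower in TxCpR cells (-0.81, SE 0.12, adjusted p = 4.39e-08) and in CpR cells (-0.61, adjusted p = 1.5e-05), where the 2 libraries differed most and the call was lost without library 1 (-0.31) and after regional subtraction (-0.21). The other of the 2 tested peaks over FZD5 was called higher in TxR and TxCpR cells, beside 6.75% and 6.63% over any protein-coding span. FZD2 (chr17:44556771-44557771) fell from 37.2 and 35.5 CPM to 25.6 and 22.4 in TxR libraries (-0.59, adjusted p = 0.000199) and to 24.2 and 31.9 in TxCpR libraries (-0.38, adjusted p = 0.033). The TxCpR calls of FZD2 and FZD3 were lost with quantile scaling (-0.25 and -0.43) and without either control library 1 (-0.35 and -0.32) or TxCpR library 1 (-0.18 and -0.49).

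FZD1 and FZD9 were the receptors called higher at a gene end, both in TxR cells. FZD1 (chr7:91263833-91264833, on the start) measured 37.3 and 41.6 CPM in control, 32.5 and 37.3 in CpR, 72.7 and 70.8 in TxR and 43.6 and 41.5 in TxCpR libraries. Its TxR libraries stood apart from the other 6, with a difference of 0.86 (SE 0.11, adjusted p = 1.37e-10) from control, and TxCpR cells were lower than TxR cells (-0.75, adjusted p = 1.81e-08). The median of the 5 Mb around FZD1 was 0.37 in this line, and the call held after it was subtracted. FZD9 (chr7:73435791-73436791) rose from 11.6 and 8.24 to 18.9 and 16.9 CPM (0.84, adjusted p = 0.000685), with no call after regional subtraction (0.54) or without control library 2 (0.61).

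FZD6, which is linked to planar cell polarity signalling, showed no called difference at its gene end, but weak peaks inside its span did. In TxCpR cells 4 of 6 FZD6 peaks were higher, from group means of 0.257 to 1.10 CPM in control to 1.46 to 3.72 CPM, beside 6.63% of the peaks over any protein-coding span. The count fell to 1 after regional subtraction and without control library 1 or either TxCpR library, and to 2 with quantile scaling and without control library 2. In CpR cells a FZD6 peak (chr8:103306778-103307778) rose from 0.260 and 0.257 to 5.97 and 5.50 CPM (3.04, SE 0.46, adjusted p = 3.53e-08). The control values there were under the limit that a count of 0 allows, 3 reads or 0.390 and 0.386 CPM. FZD4, LRP5 and LRP6 had no called gene end. LRP6 (chr12:12266661-12267661), the co-receptor phosphorylated in canonical signalling, measured 21.2 and 25.4 CPM in control, 18.2 and 18.5 in CpR, 21.5 and 22.7 in TxR and 19.9 and 25.0 in TxCpR libraries, with differences of -0.33, -0.07 and -0.05 (adjusted p = 0.079, 0.82 and 0.875).

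In TxR cells 4 of 8 gene ends of secreted inhibitors were lower (DKK2, DKK3, SFRP2 and SFRP4), beside 9.68% of all protein-coding gene ends, and DKK4 was higher. With edgeR 3 of the 8 were lower, beside 925 of all 15949 protein-coding gene ends. The calls of DKK3, SFRP2 and SFRP4 were each lost under an alternative given below. DKK2, a Dickkopf inhibitor of LRP5 and LRP6, was lower at both of its peaks. Its strongest peak (chr4:107033804-107034804) measured 14.2 and 12.2 CPM in control, 14.1 and 11.3 in CpR, 4.25 and 3.6 in TxR and 8.28 and 6.13 in TxCpR libraries. The TxR libraries were the lowest and the TxCpR ones second lowest, with no overlap between either and control. The differences were -1.63 (SE 0.22, adjusted p = 3.25e-09) and -0.84 (SE 0.22, adjusted p = 0.0043), and the second was lost without control library 1 (-0.74) or TxCpR library 2 (-0.64). The gene-end peak of DKK2 (chr4:107036707-107037707) measured 7.15 and 9.53 CPM in control and 2.91 and 3.37 in TxR libraries (-1.27, SE 0.27, adjusted p = 0.000132).

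DKK3, a divergent Dickkopf family member, was lower at its gene end in both lines resistant to 1 drug but was not called there in TxCpR cells. Of 7 tested peaks over DKK3, 3 were higher and 2 lower in CpR cells, beside 17.3% and 14.7% over any protein-coding span. In TxR and TxCpR cells 0 were higher and 1 was lower, beside 8.46% and 5.51% lower. These span counts of DKK3 were made in the main fit only. Its gene end (chr11:12009146-12010146) measured 11.4 and 12.2 CPM in control, 3.49 and 6.08 in CpR, 6.56 and 3.48 in TxR and 9.03 and 8.81 in TxCpR libraries. The differences were -1.27 (SE 0.25, adjusted p = 2.09e-05), -1.22 (SE 0.25, adjusted p = 7.88e-05) and -0.39 (adjusted p = 0.348), and TxCpR cells were higher than CpR cells (0.88, adjusted p = 0.00272) and TxR cells (0.83, adjusted p = 0.00951). Libraries of the single-drug lines differed among themselves, and the TxR call was lost without library 2 of that line (-0.81).

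SFRP1, a secreted Frizzled-related inhibitor often silenced in tumours, had the largest loss of any listed gene end. It measured 5.07 and 4.76 CPM in control (chr8:41307978-41308978), 1.35 and 0.702 in CpR, 5.71 and 5.17 in TxR and 2.60 and 3.55 in TxCpR libraries. CpR cells were lower than control (-1.86, SE 0.34, adjusted p = 5.34e-06). There 3 of 4 peaks over SFRP1 were lower, beside 14.7% over any protein-coding span, and fewer without control library 2 or CpR library 2. TxCpR cells were higher than CpR cells at this end (1.25, adjusted p = 0.00188). SFRP2, of the same family, measured 3.77 and 4.25 CPM in control (chr4:153787894-153788894), 1.12 and 3.86 in CpR, 1.46 and 0.450 in TxR and 1.85 and 2.58 in TxCpR libraries, so its lowest value was close to the limit of 0.337 CPM that a count of 0 allows. Its difference in TxR cells was -1.72 (SE 0.42, adjusted p = 0.000991), and the call was lost without library 2 of that line (-1.20). The strongest SFRP2 peak (chr4:153785531-153786531) measured 2.21 and 4.76 CPM in control and 1.7 and 1.01 in TxR libraries (-1.05, adjusted p = 0.0405), with no call with edgeR (-1.20) or any of the 3 other scalings tried. That call was kept under 9 of 17 alternatives.

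DKK1, the best studied Dickkopf inhibitor and itself a WNT target in several tissues, was higher in CpR cells, from 28.2 and 21.0 to 36.0 and 31.0 CPM at its start (chr10:52313898-52314898; 0.45, adjusted p = 0.0062), with no call after the regional median of 0.37 was subtracted (0.08), without CpR library 1 (0.34) or without control library 2 (0.24). DKK4, whose end (chr8:42391160-42392160) is shared with VDAC3, rose from 26.3 and 28.6 to 37.0 and 42.1 CPM in TxR libraries (0.52, adjusted p = 0.000948), with no call without library 2 of that line (0.43). The SFRP4 call in the same line (-0.63, adjusted p = 0.0434) rested on a pair of libraries at 8.38 and 4.61 CPM. It was kept under 8 of 17 alternatives, and edgeR (-0.46) was among those that lost it.

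All 4 receptor-turnover gene ends were called in CpR cells, RNF43 higher and ZNRF3, LGR4 and LGR5 lower, beside 11.1% higher and 28.6% lower over all protein-coding gene ends. With edgeR 3 of the 4 were called, beside 2150 higher and 3226 lower of all 15949 protein-coding gene ends. The RNF43 gene-end call was lost after regional subtraction (0.11, adjusted p = 0.595). In each of the other lines 0 were called with limma, where an unadjusted p under 0.05 gave 1 lower in TxR and 2 lower in TxCpR cells and edgeR called 0 and 1 lower. RNF43, the ubiquitin ligase that is also a WNT target gene, is best read at its start, since its gene-end peak (chr17:58351757-58352757) lies at the far end and is shared with SUPT4H1. The start peak (chr17:58417155-58418155) measured 13.1 and 7.34 CPM in control, 26.0 and 27.7 in CpR, 13.7 and 9.55 in TxR and 23 and 22.4 in TxCpR libraries. CpR and TxCpR libraries lay well above control, and TxR libraries overlapped it. The differences were 1.40 (SE 0.18, adjusted p = 1.56e-10), 1.17 (SE 0.18, adjusted p = 1.16e-07) and 0.21 (adjusted p = 0.48), and TxCpR cells were 0.95 above TxR cells (adjusted p = 1.13e-05). A weak peak 2.09 kb downstream of that start (chr17:58414942-58415942) rose with it, from 0.780 and 0.257 to 3.15 and 2.22 CPM in CpR and 4.70 and 2.58 CPM in TxCpR libraries (1.68 and 2.02, adjusted p = 0.00164 and 0.000353), the second with no call without TxCpR library 1 (1.65).

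LGR5, the R-spondin receptor that marks intestinal stem cells, again differed in opposite directions within its span. Its gene end (chr12:71439068-71440068) measured 8.84 and 9.53 CPM in control, 2.14 and 4.79 in CpR, 5.34 and 6.97 in TxR and 5.19 and 6.56 in TxCpR libraries. All 6 resistant libraries were below control, and the difference was called in CpR cells (-1.37, SE 0.27, adjusted p = 2.09e-05). A second LGR5 peak (chr12:71556656-71557656, also within the span of LOC105369833), 118 kb from that end, went from 0.130 and 0.515 CPM in control to 11.1 and 6.55 in CpR libraries and was 0.430 to 0.989 CPM in the other 4. Its difference was 3.50 (SE 0.46, adjusted p = 6.47e-10), the largest of any peak over a listed span in that line. LGR4, a second R-spondin receptor (chr11:27472289-27473289), fell from 34.3 and 38.1 to 26.3 and 21.8 CPM (-0.59, adjusted p = 0.000139) although the median of its 5 Mb was 0.79. ZNRF3, the partner ligase of RNF43, was called lower at its gene end (-0.36, adjusted p = 0.0349). That call was kept under 10 of 17 alternatives, and edgeR (-0.28) was among those that lost it. A peak inside ZNRF3 (chr22:29031095-29032095, also within ZNRF3-AS1) rose from 2.47 and 1.80 to 11.8 and 8.42 CPM (2.0, adjusted p = 3.03e-06).

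**Figure D3:**
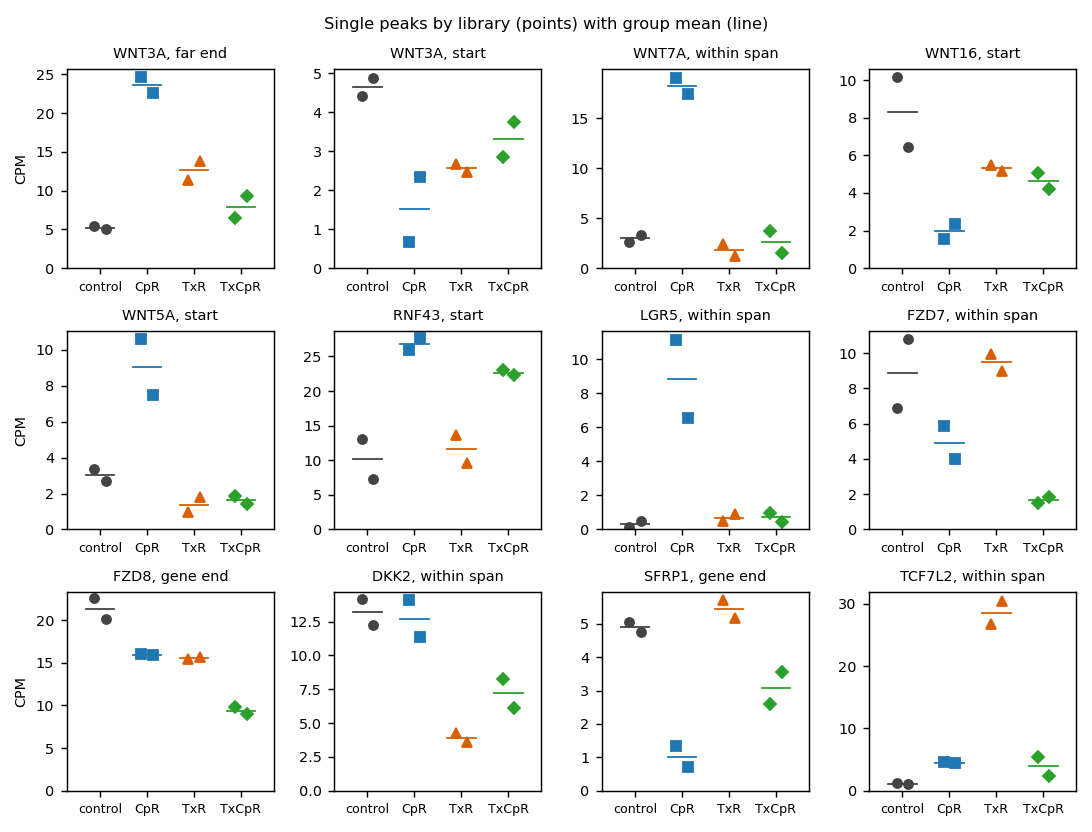
Level in CPM of 12 single peaks, with 1 point per library and a line at the group mean, each panel with its own axis from 0. The WNT7A and LGR5 peaks within the span stand out in CpR cells, the TCF7L2 peak in TxR cells, RNF43 in CpR and TxCpR cells, and FZD7 and FZD8 are lowest in TxCpR cells.

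Among the intracellular genes, CTNNB1, which encodes beta-catenin, had no called gene end (chr3:41199041-41200041). It measured 17.9 and 15.1 CPM in control, 19.6 and 19.2 in CpR, 15.2 and 16.1 in TxR and 14.2 and 17.8 in TxCpR libraries, with differences of 0.23, -0.07 and -0.04 (adjusted p = 0.296, 0.83 and 0.91). Of 8 tested peaks over CTNNB1, 3 were lower in TxR cells, beside 8.46% over any protein-coding span. In CpR cells 1 was higher, beside 17.3%, and in TxCpR cells 1 was lower, beside 5.51%. These span counts of CTNNB1 were made in the main fit only. APC, the scaffold of the destruction complex, measured 51.3 and 52.3 CPM in control (chr5:112707032-112708032), 40.5 and 40.0 in CpR, 54.6 and 54.3 in TxR and 39.4 and 47.3 in TxCpR libraries. It was lower in CpR cells (-0.36, SE 0.11, adjusted p = 0.00476), a call lost with median-ratio, quantile and loess scaling, and the other differences were 0.07 and -0.26 (adjusted p = 0.721 and 0.0938), the latter called without TxCpR library 2 (-0.39).

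AXIN2, a feedback inhibitor and a widely used readout of canonical signalling, measured 10.3 and 10.2 CPM in control (chr17:65561473-65562473), 14.3 and 19.1 in CpR, 9.96 and 9.55 in TxR and 11.9 and 17.7 in TxCpR libraries. The control and TxR libraries were close together and the other 4 were higher and more spread. The call in CpR cells (0.67, SE 0.19, adjusted p = 0.00366) was lost without library 2 of that line (0.47) and after the regional median of 0.45 was subtracted (0.21), and the TxCpR difference was 0.49 (adjusted p = 0.0775), with a call without TxCpR library 1 (0.77). LEF1 (chr4:108168269-108169269, an end shared with LOC124900752) measured 7.80 and 5.79 CPM in control, 3.83 and 6.43 in CpR, 2.43 and 3.93 in TxR and 2.72 and 3.12 in TxCpR libraries. It was lower in TxR (-1.0, SE 0.31, adjusted p = 0.0124) and TxCpR cells (-1.08, SE 0.31, adjusted p = 0.0077). Without control library 1 both LEF1 calls were lost (-0.80 and -0.88), as was the first without TxR library 1 (-0.71) and the second without TxCpR library 1 (-1.0).

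TCF7, another of the DNA-binding partners of beta-catenin, was called lower at its start (chr5:134115209-134116209) in CpR cells (-0.98, SE 0.28, adjusted p = 0.00402), from 7.28 and 7.85 to 4.05 and 3.16 CPM, with no call without library 2 of that line (-0.82). The start was also called lower in TxR cells, at 4.37 and 4.05 CPM (-0.78, SE 0.28, adjusted p = 0.0464), a call kept under 8 of 17 alternatives. In TxCpR cells TCF7 measured 4.08 and 4.41 CPM there (-0.77, adjusted p = 0.0582). Its strongest peak (chr5:134140339-134141339), 17.2 kb downstream, measured 12.6 and 15.7 CPM in control, 15.2 and 14.2 in CpR, 18.4 and 18.3 in TxR and 25.5 and 25.3 in TxCpR libraries. The TxCpR libraries were the highest, with a difference of 0.83 (SE 0.16, adjusted p = 3.67e-05) from control.

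TCF7L2, the TCF factor with the widest span of the listed genes and 55 tested peaks, carried the largest differences in TxR cells. There 17 of the 55 peaks were called higher and 0 lower with limma (20 and 0 at an unadjusted p under 0.05, 19 and 0 with edgeR, 11 and 0 without control library 2), beside 6.75% higher over any protein-coding span, so that TCF7L2 alone held 17 of the 28 higher peaks over all listed spans, while its start peak (chr10:112949622-112950622) was at 57.2 and 53.7 CPM in control and 59.1 and 60.9 in TxR libraries (0.11, adjusted p = 0.484). Within the span, 106 kb from the start, a peak at chr10:113056206-113057206 measured 1.30 and 1.03 CPM in control, 4.61 and 4.44 in CpR, 26.7 and 30.5 in TxR and 5.44 and 2.36 in TxCpR libraries. All 6 resistant libraries exceeded control and the TxR ones exceeded the rest many times over. The difference was 4.13 (SE 0.28, adjusted p = 4.0e-24), and TxCpR cells were 2.81 lower than TxR cells on the log2 scale (adjusted p = 1.82e-14). A peak at chr10:113027469-113028469 went from 3.90 and 2.45 to 25.4 and 27.7 CPM (2.91, adjusted p = 3.51e-16), with 4.70 and 3.98 CPM in TxCpR libraries.

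In the other lines TCF7L2 moved less. In TxCpR cells 5 of its 55 peaks were higher, beside 6.63% over any protein-coding span, and 3 without TxCpR library 1. In CpR cells 6 were higher and 1 lower, a share of higher peaks under the 17.3% over any protein-coding span, and 2 were higher without control library 2 and 3 without CpR library 2. After regional medians were subtracted, 14 were higher in TxR, 5 higher and 2 lower in TxCpR, and 3 higher and 5 lower in CpR cells. The plot of peaks over TCF7L2 shows that its higher peaks in TxR cells lie in groups along the gene. The start peak itself was slightly higher in CpR cells (0.24, adjusted p = 0.0445), a call kept under 10 of 17 alternatives and lost, among others, after regional subtraction (0.01).

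**Figure D4:**
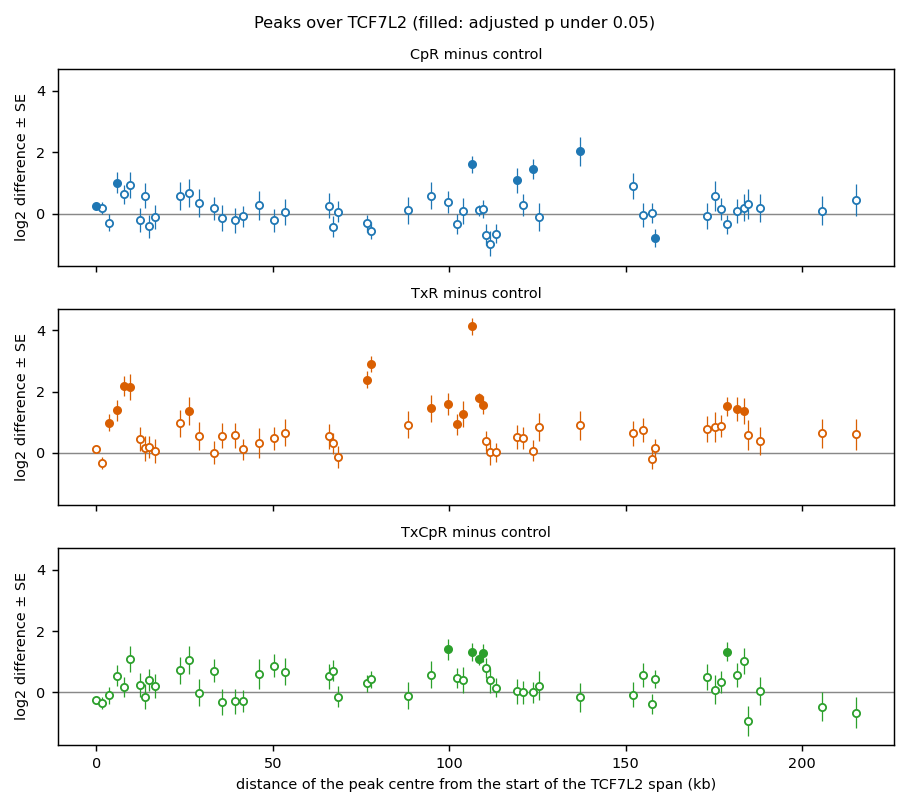
Log2 difference of CPM + 0.5 from control at each of the 55 tested peaks over TCF7L2 against the distance of the peak centre from the start of the span in kb, with bars of 1 SE and filled points where the adjusted p is under 0.05. In TxR cells 17 filled points lie above 0, the highest at 4.13 about 106 kb from the start, against 5 in TxCpR cells.

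Counted over strongest peaks, CpR cells had 9 higher and 13 lower of 46 (19.6% and 28.3%), beside 10.7% and 29.2% of the strongest peaks of all protein-coding genes. TxR cells had 5 and 8 (10.9% and 17.4%), beside 12.9% and 9.94%, and TxCpR cells had 1 (TCF7) and 9 (2.17% and 19.6%), beside 5.44% and 14.1%. Counted over all 301 tested peaks on listed spans, 42 were higher and 41 lower in CpR cells (14% and 13.6%), beside 17.3% and 14.7% of the peaks over any protein-coding span. In TxR cells 28 were higher and 24 lower (9.3% and 7.97%, beside 6.75% and 8.46%), and in TxCpR cells 18 were higher and 16 lower (5.98% and 5.32%, beside 6.63% and 5.51%).

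The resistant lines also differed from each other at WNT gene ends. TxCpR cells differed from CpR cells at 14 of 42 gene ends (6 higher, 8 lower), beside 36.5% of all protein-coding gene ends, and from TxR cells at 13 (2 higher, 11 lower), beside 31.9%. TxR and CpR cells differed at 20 (13 higher and 7 lower in the former), beside 47.6%. Among these WNT6 was 1.43 higher in TxR than in CpR cells (adjusted p = 7.08e-10), and DKK2 at its gene end was 1.05 lower (-1.05, adjusted p = 0.000806). The interaction term, which asks whether the TxCpR difference departs from the sum of both single-drug differences, was called at 12 of 42 gene ends, beside 34% of all.

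A wider list of 65 further WNT pathway genes, of which 60 had a gene-end peak, gave 4 higher and 15 lower gene ends in CpR cells (6.67% and 25%, both under the 11.1% and 28.6% of all protein-coding gene ends). There were 8 and 9 in TxR cells (13.3% and 15%, beside 12.7% and 9.68%) and 5 and 12 in TxCpR cells (8.33% and 20%, beside 4.86% and 14.8%). SP5, a transcription factor known as a direct beta-catenin target, measured 4.42 and 6.18 CPM in control, 1.12 and 1.99 in CpR, 14 and 12 in TxR and 9.40 and 10.6 in TxCpR libraries. It was lower in the first line (-1.51, adjusted p = 1.61e-06) and higher in the others (1.23 and 0.87, adjusted p = 0.000158 and 0.014). RSPO1, KREMEN1 and NKD1, an R-spondin, a DKK co-receptor and an intracellular antagonist, were the other genes past a log2 difference of 1 in CpR cells (-1.30, -1.28 and -1.04). WLS, the carrier that WNT ligands need for secretion, was lower in TxR (-1.82, adjusted p = 7.7e-08) and TxCpR cells (-1.36, adjusted p = 8.95e-05), from 8.97 and 7.21 CPM to 1.82 and 2.02 and to 2.84 and 2.79 CPM.

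Other genes of the wider list moved in the lines resistant to paclitaxel. GPC4, a cell-surface proteoglycan, was higher in TxR and TxCpR cells (1.91 and 1.41), as was FRZB, a secreted Frizzled-related inhibitor (1.33 and 1.70). In TxR cells ROR2, a receptor for WNT5A, was higher (1.28) and TNIK, a kinase that acts with TCF7L2, was lower (-1.77), while RSPO4 (-1.38) lay near 1 CPM and its call was lost with edgeR (-1.91). In TxCpR cells TPBG, a cell-surface inhibitor of WNT signalling (-1.92), DVL1, which carries the signal from Frizzled (-1.35), and RSPO3 (-1.17) were lower, the last with no call without control library 1 (-0.77).

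Reads in peaks numbered 7693492 to 9304798 per library, so that 1 read was worth 0.107 to 0.130 CPM. Gene-end peaks were present for 10 of 12 epithelial and 8 of 8 mesenchymal marker genes, for 5 of 6 haematopoietic ones (not PTPRC) and for 1 of 5 endothelial ones (not PECAM1, CDH5, TEK or VWF). Of the epithelial markers KRT19 and MUC16 had none, and KRT8 and KRT18 share 1 peak, counted once. The summed epithelial level was 63.1 to 68.4 CPM in control, 48.3 to 50.5 in CpR, 43.4 to 44.4 in TxR and 54.9 to 57.2 in TxCpR libraries, and the summed mesenchymal level was 95.9 to 105.0, 126.6 to 141.2, 143.9 to 147.4 and 138.2 to 146.5 CPM. Single markers went against these sums: PAX8 was called higher in CpR cells (means of 1.03 CPM in control and 4.01), COL1A2 lower there, and PDGFRA lower in CpR and TxR cells (means of 30.9 CPM in control, 18.6 and 9.4). The 1 endothelial marker with a peak, CLDN5, was at 2.21 to 2.7 CPM in control, 1.17 to 2.03 in CpR, 11.2 to 11.9 in TxR and 5.94 to 6.02 in TxCpR libraries. The haematopoietic sum was 26.9 to 42.9 CPM over all 8 libraries. Most of it was SPI1, with means of 25.7 CPM in control, 18.8 in CpR, 34.1 in TxR and 23.9 in TxCpR cells. SPI1 was called lower in CpR and higher in TxR cells. The part of these shifts in the differences at WNT genes was not tested, and in bulk libraries fewer cells with an open site and less opening per cell cannot be told apart.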

How the data were processed

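The deposited table holds CPM values (read counts scaled to reads in peaks) of 159451 consensus peaks in 8 ATAC-seq libraries, and the authors' values sum to the same total in each. Bowtie2, Picard, MACS2 and hg38 are named in the submitters' processing notes, while those sources do not give versions, settings, the shift of reads for Tn5, duplicate handling or peak merging. The CPM values were whole multiples of 1 read for 100% of values within 0.01 read. A minimum of 1 CPM in 2 or more libraries left 158698 peaks, and log2(CPM + 0.5) was fitted with limma 3.58.1 in R 4.3.3, with a variance trend, group as the term and Benjamini-Hochberg adjustment. This scale understates changes of low peaks, and scaling to a fixed total hides a change shared by all peaks. Scripts were tested on simulated data.

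Every listed gene was counted. Values per library are given where a gene-end or strongest peak was called and differed by at least 1 (log2) in either direction, without overlap of the groups and with at least 3 CPM in the higher group (12 genes), and always for AXIN2, LEF1, CTNNB1, APC and LRP6. From the wider list up to 6 genes per line past 1 were named. The rest, promoter-window peaks and span peaks past an absolute log2 difference of 2 were chosen after their values were seen. The listed genes, the wider list and the markers were chosen with earlier results of these data known. Alternatives were pseudocount 1, no filter, other scalings, edgeR 4.0.16 on recovered reads, regional medians over 5 Mb subtracted, a replicate block, other peak definitions, only the groups compared and each library left out. Counting limits of 3 reads cover counting error only.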

Additional observations from a re-analysis of the deposited data

Results flagged for a closer look

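The interaction term, which is the TxCpR difference from control minus the sum of the CpR and TxR differences, was called with a size of at least 1 at 9 peaks among the listed genes described by library. All are from limma with Benjamini-Hochberg adjustment over all tested peaks. Each of the 9 had been named for a called CpR or TxR difference of at least 1 in size. The term subtracts that same difference, so its sign was largely set by this choice. Without that choice, the term was called at 12 of 42 gene ends (28.6%), beside 34% of all protein-coding gene ends. Negative terms, meaning that TxCpR cells lay below that sum, were found at the far end of WNT3A (-2.73, adjusted p = 1.37e-13) and at the strongest peaks of WNT7A (-2.07, adjusted p = 0.000139), WNT3 (-1.56, adjusted p = 0.000468) and WNT7B (-1.42, adjusted p = 0.00326). The WNT7B term was lost without TxCpR library 1 (-0.95) or TxR library 2 (-1.0). At all 4 peaks the CpR line was the one with the highest level.

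Positive terms were found at the gene ends of DKK3 (2.10, adjusted p = 1.22e-06), SFRP2 (1.74, adjusted p = 0.0156) and LGR5 (1.31, adjusted p = 0.00488), and at the strongest peaks of WNT16 (1.64, adjusted p = 0.0012) and SFRP2 (1.57, adjusted p = 0.016). DKK3 was low in both single-drug lines, at 3.48 to 6.56 CPM, and at 9.03 and 8.81 CPM in TxCpR libraries. The LGR5 term was kept under 12 of 16 alternatives. It was lost, among others, with edgeR (1.01), after regional subtraction (0.43) and without CpR library 1 (0.81). Both SFRP2 terms were kept under 9 of 16 alternatives. They were lost, among others, with loess scaling (1.34 at the gene end and 1.09 at the strongest peak) and without control library 2 (1.66 and 1.09).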

How the results depend on the processing

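Of 112 single-peak results, 55 kept their side of the threshold and their sign under every alternative tried, among them the called differences from control at the far end of WNT3A (CpR and TxR), the WNT16 start (CpR) and the gene ends of FZD8 (TxCpR), FZD1 (TxR) and SFRP1 (CpR). The cause of the changes below was not tested, except that leaving out a library leaves 1 in its group, assumed to vary like the others. In each comparison with control, leaving out a library of either group also lowered the number of called gene ends over all protein-coding genes. Counts below are of gene ends unless said otherwise. A pseudocount of 1 and no filter moved no count by over 1.5 times. Libraries with the same number did not deviate together (correlations -0.000587 to 0.00332), and the replicate block gave 5 higher and 11 lower in CpR, 5 and 8 in TxR and 0 and 8 in TxCpR cells, as without it.

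Median-ratio scaling gave 9 higher and 5 lower in TxR and 13 lower in TxCpR cells, and for strongest peaks 8 lower in CpR, 11 higher and 3 lower in TxR and 15 lower in TxCpR cells. Over all 15949 protein-coding gene ends this scaling gave 4197 higher and 927 lower in TxR and 3710 lower in TxCpR cells. The main fit gave 2032, 1544 and 2360 there. With edgeR there were 9 higher and 5 lower in TxR and 14 lower in TxCpR cells, and for strongest peaks 10 higher and 3 lower in TxR and 15 lower in TxCpR cells. Over all protein-coding gene ends edgeR gave 4087 higher and 925 lower in TxR and 4089 lower in TxCpR cells. Loess scaling gave 7 lower in CpR and 5 lower in TxCpR cells, and for strongest peaks 6 lower in CpR and 4 lower in TxR cells. Over all protein-coding gene ends the lower ones went from 4555 to 2152 in CpR and from 2360 to 1261 in TxCpR cells. Quantile scaling gave 4 lower strongest peaks in TxR cells and 8 gene ends that differed between TxCpR and TxR cells. Regional subtraction gave 1 higher in CpR, 8 higher in TxR, and 1 higher and 13 lower in TxCpR cells, and for strongest peaks 4 higher in CpR, 9 higher in TxR, and 2 higher and 14 lower in TxCpR cells. Over all protein-coding gene ends it gave 1458 higher in CpR, 3647 higher in TxR, and 600 higher and 3384 lower in TxCpR cells. The main fit gave 1774, 2032, 775 and 2360. Such counts over all genes were made only for gene ends compared with control. Peaks on promoter windows gave 2 higher and 3 lower in TxR and 1 higher and 3 lower in TxCpR cells. These counts are not out of the 42 gene ends. Windows were listed for 32 genes, some of them without a tested peak on a window. The shares over promoter-window peaks of all genes were not counted.

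With 1 library left out, the counts ran from 3 to 5 higher in CpR, 3 to 9 lower in TxR, and 0 to 2 higher and 3 to 9 lower in TxCpR cells. For strongest peaks they ran from 3 to 8 lower in TxR, and 1 to 3 higher and 4 to 10 lower in TxCpR cells. Gene ends that differed ran from 5 to 13 between TxCpR and TxR and from 13 to 20 between TxR and CpR cells. The lowest counts came without TxR library 2 for TxR (3 lower, 5 against TxCpR and 13 against CpR) and without TxCpR library 1 for TxCpR cells (3 lower).

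Among differences that were not called, signs turned as follows. In TxR cells AXIN2 was 0.099, 0.093 and 0.134, CTNNB1 0.094, 0.083 and 0.096 and LRP6 0.099, 0.087 and 0.153 with median-ratio scaling, edgeR and regional subtraction, and APC -0.044 with loess and -0.058 with quantile scaling. In TxCpR cells CTNNB1 was 0.013 and 0.002 and LRP6 0.027 and 0.044 with loess and quantile scaling. CTNNB1 in CpR cells was -0.272 after regional subtraction. With 1 library left out, CTNNB1 ran from -0.194 to 0.051 in TxR and -0.202 to 0.115 in TxCpR cells, and LRP6 from -0.195 to 0.059 and from -0.215 to 0.109. At this depth a count of 0 allows up to 0.390 CPM.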
